A study of Mus musculus with 54 samples.

Results

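MHC class II molecules carry peptides from endocytosed proteins to the cell surface, where CD4+ T cells read them, and macrophages, dendritic cells and B cells are the professional antigen-presenting cells that make them. Transcription of the class II genes depends on the transactivator CIITA, which does not bind DNA itself but docks on a complex of RFX, CREB and NF-Y proteins held at the X and Y boxes of class II promoters. Interferon-γ switches on Ciita through JAK kinases and IRF1, and IL-4 raises class II in macrophages and B cells through STAT6. The α and β chains assemble with the invariant chain (CD74), which fills the peptide groove and guides the complex to endosomes, where cathepsins trim CD74 and the H2-DM heterodimer exchanges the remaining fragment for antigenic peptide.

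The 7 genes followed here were taken by symbol: Ciita, the chain genes H2-Aa, H2-Ab1 and H2-Eb1, Cd74, and H2-DMa and H2-DMb1, which code for the peptide editor. All 7 were present among the 39179 gene IDs of the read count files and passed the filter on low counts in both experiments, where 16110 and 14172 genes were tested. The cells were thioglycolate-elicited peritoneal macrophages of C57BL/6 mice aged 8 to 20 weeks, collected 4 days after injection. In the polarization experiment, cells of 3 mice were left untreated (M0), treated for 24 h with LPS at 100 ng/ml plus IFNγ at 50 ng/ml (M1-like) or with IL-4 at 10 ng/ml (M2-like), and each mouse and condition was sequenced as 2 technical replicates, which were summed. In the reprogramming experiment, 12 groups of 3 samples were sequenced: M0, M1-like and M2-like macrophages, each untransfected or mock transfected with reagent alone, and M2-like macrophages transfected with a negative siRNA pool, with pools against E2f1, Myc, Pparg or Stat6, or with all 4 targeting pools combined. IL-4 was withdrawn at transfection and the siRNA groups were harvested 48 h later, so that all of them had been exposed to IL-4 for the first 24 h and none afterwards. The study's methods place sequencing of macrophages without transfection at 24 h after polarization, without saying whether this holds for the untransfected groups of the reprogramming experiment, and the labels do not tie the replicates of the reprogramming experiment to separate mice, so its p-values measure the spread between samples that may share animals.

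Libraries held 13421854 to 29880494 counted reads. Macrophage markers were high in every group, with Lyz2 between 3580 and 13739 CPM (counts scaled to library size by TMM) and Cd68 between 1222 and 2673 CPM. B cells and dendritic cells also express class II, and the levels of their markers ranged widely. Of the B cell list, Ms4a1 reached at most 5.54 CPM and Cd79a 14.2 CPM, whereas Ighm, the IgM heavy chain, reached 103 CPM in a combined pool sample and Cd22 165 CPM. Of the dendritic cell list, Flt3 and Xcr1 reached at most 0.533 and 0.645 CPM and Ccr7 36.6 CPM. In these bulk samples, fewer cells of a type and less RNA per cell cannot be told apart.

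H2-Aa (chr17:34282744-34287823, minus strand, GRCm38), H2-Ab1 (chr17:34257689-34269419), H2-Eb1 (chr17:34305867-34316674), H2-DMa (chr17:34119541-34139101) and H2-DMb1 (chr17:34153072-34160230) lie in the MHC on chromosome 17, whereas Ciita lies on chromosome 16 (chr16:10480059-10528418) and Cd74 outside the MHC. GENCODE M21 places exon bases of H2-DMa opposite exons of Brd2 and exon bases of Ciita opposite exons of Dexi, and the strand setting of the counting is not given in the sources used here. H2-DMb1 has a close copy, H2-DMb2, and reads could be split between them. The 250 bases upstream of the RefSeq start (GRCm38.p6) of H2-Aa, H2-Eb1 and H2-DMb1 are shown because the complex that recruits CIITA sits in this part of class II promoters. Capitals mark the letters AGNAACNGA (an X1 box core) and ATTGG (the Y box core, an inverted CCAAT), searched on both strands, and no match overlapped another.
H2-Aa (chr17:34287824-34288073, minus strand): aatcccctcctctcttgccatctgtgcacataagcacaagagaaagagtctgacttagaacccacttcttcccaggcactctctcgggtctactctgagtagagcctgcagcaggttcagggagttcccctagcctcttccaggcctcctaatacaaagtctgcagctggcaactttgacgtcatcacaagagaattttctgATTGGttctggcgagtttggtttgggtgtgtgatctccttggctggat
H2-Eb1 (chr17:34305617-34305866, plus strand): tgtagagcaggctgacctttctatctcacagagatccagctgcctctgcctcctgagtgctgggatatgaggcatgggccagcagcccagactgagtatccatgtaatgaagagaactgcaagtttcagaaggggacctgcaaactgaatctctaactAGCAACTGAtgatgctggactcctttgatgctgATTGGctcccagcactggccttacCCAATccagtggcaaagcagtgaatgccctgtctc
H2-DMb1 (chr17:34152941-34153190, plus strand): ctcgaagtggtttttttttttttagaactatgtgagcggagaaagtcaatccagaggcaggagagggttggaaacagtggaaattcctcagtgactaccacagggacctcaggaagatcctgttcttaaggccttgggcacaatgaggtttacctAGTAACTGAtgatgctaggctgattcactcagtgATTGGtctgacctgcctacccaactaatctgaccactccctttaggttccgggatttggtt

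The X1 core letters began 92 bases before the start of H2-Eb1 and 95 bases before that of H2-DMb1, and in both promoters ATTGG followed within 40 bases on the same strand. Among 32851 RefSeq windows of the same length, 4.42% held the X1 core letters, 33.8% held ATTGG on either strand and 0.0548% held them in this order and spacing. The H2-Aa window held ATTGG but not the X1 core letters, and the windows of H2-DMa held at most ATTGG. Of the other class II genes, H2-Eb2 held both motifs, and H2-Oa, H2-Ob and H2-DMb2 held ATTGG alone. The X1 core letters were chosen after these sequences were read, and a match is a description of the letters only.

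All 7 genes rose under both polarizing treatments, and further under LPS with IFNγ than under IL-4. Ciita was at 4.94, 3.66 and 3.53 CPM in the M0 macrophages of the 3 mice, at 17.7, 17.9 and 14.3 CPM after IL-4 and at 291, 281 and 244 CPM after LPS with IFNγ. The 3 groups did not overlap, and the same held, in the same order, for all 7 genes and for 6.72% of all genes tested. The log2 fold change against M0, given throughout from edgeR's quasi-likelihood fit with p-values adjusted by Benjamini-Hochberg over all genes tested, was 6.07 ± 0.15 (SE) in M1-like macrophages, 67.3-fold (edgeR, adjusted p = 3.92e-12), and 2.04 ± 0.13 in M2-like macrophages, 4.12-fold (edgeR, adjusted p = 1.23e-06). Ciita, the least abundant of the 7 per kilobase of exon, at 0.424 ± 0.0820 RPKM (SD) in M0, had the largest change of the 7 in each of these comparisons.

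The chain genes moved with it. H2-Aa, the α chain of I-A, was at 87.8, 73.5 and 69.7 CPM in M0, rose to 216, 193 and 169 CPM with IL-4 and stood at 1408, 1422 and 1317 CPM in M1-like cells. H2-Ab1, its β chain partner, was at 63.5, 49.7 and 46.1 CPM in M0 macrophages, 137, 144 and 129 CPM after IL-4 and 1548, 1487 and 1491 CPM after LPS with IFNγ. The rise in M1-like macrophages was 4.17 ± 0.11 for H2-Aa and 4.83 ± 0.12 for H2-Ab1 on the log2 scale. H2-Eb1, the I-E β chain, rose by 4.09 ± 0.10, from 44.7 ± 5.55 (SD, n = 3) to 759 ± 40.9 CPM. C57BL/6 mice lack a working I-E α chain gene, so that its product has no partner, and the pseudogene H2-Ea-ps did not exceed 0.0508 CPM in any sample.

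Cd74 was the most abundant member in every group, at 273, 222 and 209 CPM in M0, 493, 496 and 442 CPM after IL-4 and 4036, 4027 and 4152 CPM after LPS with IFNγ. Its log2 fold changes were 4.12 ± 0.10 (M1-like) and 1.02 ± 0.09 (M2-like). Per kilobase of exon it stood at 2425 RPKM in M1-like macrophages, against 588 RPKM for H2-Ab1, 390 RPKM for H2-Eb1 and 364 RPKM for H2-Aa. The H2-DM genes rose from a lower base. H2-DMa went from 15.6, 15.1 and 13.6 CPM in M0 to 22.2, 28.6 and 27.2 CPM with IL-4 and 257, 253 and 241 CPM with LPS and IFNγ. H2-DMb1 went from 25.5, 22.3 and 23.3 CPM to 39.1, 40.7 and 39.3 CPM and to 266, 257 and 238 CPM, the smallest rise of the 7 in both conditions (log2 fold changes 3.42 ± 0.07 and 0.74 ± 0.07).

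All 7 were called higher at an adjusted p under 0.05 in M1-like macrophages, where 35.4% of all genes tested were called higher, and all 7 had a log2 fold change of at least 1, as had 14.8% of genes. In M2-like macrophages all 7 were called higher, against 13.5% of genes, and 5 of them had a log2 fold change of at least 1, against 1.8%. H2-DMa and H2-DMb1 were the members under 1. M1-like macrophages exceeded M2-like macrophages for all 7 (34.6% of genes were called higher in this comparison, and 15.4% with a log2 fold change of at least 1), with log2 fold changes of 2.68 to 4.03. Together the 7 genes made up 0.0452% ± 0.00607 (SD, n = 3) of the TMM-scaled library size in M0, 0.0986% ± 0.0066 in M2-like and 0.850% ± 0.00998 in M1-like macrophages. The scaling factors were 1.09 to 1.11 in M0 and 0.809 to 0.836 in M1-like samples, so these values are not shares of the raw reads.

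**Figure D1:**
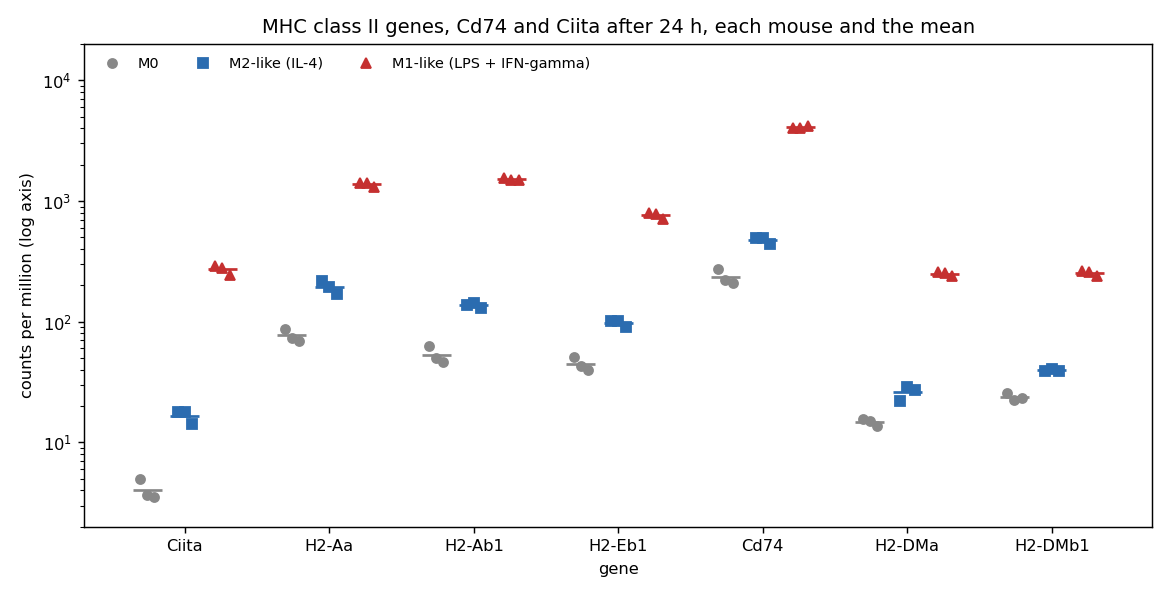
CPM (log axis) of the 7 genes after 24 h, with 1 point for each of the 3 mice and a line at the group mean. For each gene the M0, M2-like and M1-like points occupy separate ranges, and the M1-like points are the highest, from 238 CPM (H2-DMb1) to 4152 CPM (Cd74).

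Marker lists of cell types were summed for the same samples. The summed level of the 8 B cell markers was 173 to 182 CPM in M0, 156 to 162 CPM after IL-4 and 51.4 to 58.4 CPM after LPS with IFNγ, and Cd22 made up most of it in M0, at 150.2 to 160.3 CPM. The sum of the 7 dendritic cell markers was 5.02 to 9.20 CPM in M0, 4.75 to 12.6 CPM after IL-4 and 29.8 to 40.6 CPM after LPS with IFNγ, so that its group means followed the order of the class II genes. Ccr7, a chemokine receptor that activated macrophages also express, was at 26.4 to 36.6 CPM there against 1.45 to 4.12 CPM in M0. The sum of the 7 macrophage markers was 16117 to 17395 CPM in M0, 12698 to 13028 CPM after IL-4 and 10240 to 11161 CPM after LPS with IFNγ, and that of the 4 markers of large peritoneal macrophages 13.8 to 17.4, 37.4 to 42.9 and 13.8 to 16.8 CPM. The part of these lists in the class II result was not tested.

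The regulators of Ciita were read from a list of 7 inducers. In M1-like macrophages, where 37.5% of all genes were called lower, 6 of them rose and 1 fell: Irf1, a direct activator of the Ciita promoter, rose by 5.85 ± 0.09 and Jak2 by 3.24 ± 0.09, while the receptor chain Ifngr1 fell by 1.42 ± 0.05 on the log2 scale. In M2-like macrophages Jak2 (0.74 ± 0.09) and Irf1 (0.44 ± 0.07) rose and the other 5 did not pass the test. Of the inhibitors, Socs1, which blocks JAK signalling, rose by 8.81 ± 0.20 (M1-like) and 3.51 ± 0.21 (M2-like) from a mean of 0.576 CPM in M0. Prdm1, a repressor of Ciita in plasma cells, rose by 0.70 ± 0.07 (M1-like) and fell by 0.27 ± 0.07 (M2-like). Of the 7 genes for the DNA-bound complex, 5 rose and 1 fell in M1-like macrophages, with Rfx5 rising by 2.88 ± 0.08 and Nfya falling by 0.47 ± 0.05. In M2-like macrophages Nfya (0.28 ± 0.05) and Nfyb (0.22 ± 0.07) rose and Rfx5 did not pass the test (-0.18 ± 0.09). The median log2 fold change of the 7 complex genes was 0.49 (M1-like) and 0.15 (M2-like), against -0.04 and 0.00 over all genes tested.

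The class I genes, which are driven by NLRC5 and load peptides of cytosolic proteins, had another pattern under IL-4. All 7 class I genes rose in M1-like macrophages, by 1.31 ± 0.09 (H2-D1) to 4.78 ± 0.08 (Nlrc5) on the log2 scale, whereas in M2-like macrophages only B2m (0.20 ± 0.05) rose, Nlrc5 fell by 0.24 ± 0.07 and the other 5 did not pass the test. The co-stimulatory genes behaved differently again: Cd40, the largest of the 4 increases in M1-like macrophages, rose there by 7.61 ± 0.11, and in M2-like macrophages Cd40 rose by 0.37 ± 0.10 while Icam1 fell by 1.07 ± 0.08 along with Cd86 and Cd80. Of the 10 genes for class II processing and turnover, 4 rose and 4 fell in M1-like macrophages. This is near the shares of all genes tested, 35.4% called higher and 37.5% called lower. Sppl2a, a protease that clears CD74 fragments, rose by 2.63 ± 0.09 and Ctsd, an aspartic cathepsin, fell by 2.41 ± 0.06. In M2-like macrophages 2 rose and 2 fell, led by Ifi30 (0.74 ± 0.08), a lysosomal thiol reductase, and Ctsd (-0.53 ± 0.06). These counts were also near the shares of all genes, 13.5% called higher and 14.4% called lower.

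Of the other class II genes, H2-Oa and H2-Ob, which code for the H2-DO inhibitor of H2-DM, rose in M1-like macrophages by 4.57 ± 0.29 and 1.46 ± 0.29 and stayed low, at 4.27 to 5.47 CPM and 3.33 to 4.39 CPM. H2-DMb2 rose by 3.18 ± 0.09 (M1-like) and 0.65 ± 0.09 (M2-like), and H2-Eb2 did not pass the test in either (-0.22 ± 0.37 and -0.45 ± 0.36) at 0.247 to 0.760 CPM over the 9 samples.

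The second experiment held the same groups with and without mock transfection. All 7 genes were called higher in M1-like than in M0 macrophages (untransfected, 29% of genes called higher; mock, 30.3%), in M2-like than in M0 macrophages (10.7% and 2.19%) and in the M1-like than in the M2-like state (31.3% and 30.9%). Untransfected M0, M2-like and M1-like macrophages held Ciita at 9.77 ± 2.30, 32.7 ± 5.96 and 147 ± 20.1 CPM (SD, n = 3) and Cd74 at 351 ± 89.5, 1478 ± 104 and 5446 ± 941 CPM. The log2 fold change of M2-like against M0 macrophages was 2.19 ± 0.13 for H2-Aa, 2.07 ± 0.13 for Cd74, 1.89 ± 0.12 for H2-Eb1, 1.74 ± 0.15 for Ciita and 1.73 ± 0.12 for H2-Ab1, and 1.05 ± 0.11 and 0.82 ± 0.09 for H2-DMa and H2-DMb1. The experiments differed in read length (50 and 150 nt) and were normalized separately, so their values stand side by side without a test. H2-DMb2 was at 45.4 to 49.7 CPM in M1-like macrophages of the polarization experiment and at 6.56 to 9.46 CPM in untransfected M1-like macrophages of the reprogramming experiment.

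Mock transfection went with higher class II in M0 macrophages. H2-Aa was at 118, 121 and 82.8 CPM in untransfected and 166, 165 and 166 CPM in mock M0 macrophages, a log2 fold change of 0.63 ± 0.13 (edgeR, adjusted p = 0.000567). H2-Ab1, H2-Eb1, Cd74 and Ciita rose by 0.44 ± 0.11, 0.45 ± 0.12, 0.54 ± 0.12 and 0.45 ± 0.16, so that 5 of 7 were called higher against 11.7% of genes. Untransfected M0 replicate 3 was the lowest of its group in all 5, and without it 2 of the 7 were called, and 3 without mock M0 replicate 2. Ciita lost its call in 4 of 6 fits that left out a library. In M1-like macrophages edgeR called 0 of 7 (0% of genes called) and in M2-like macrophages 0 of 7 (1.77%), with log2 fold changes between -0.17 and -0.01 and between -0.15 and 0.02. At an unadjusted p under 0.05 the counts were also 0 and 0, and DESeq2 called 0 in both. The response to polarization was smaller among mock than among untransfected macrophages, in a test of the difference itself. For M1-like against M0 the 4 genes H2-Aa, H2-Ab1, H2-Eb1 and Cd74 were called (5.85% of genes were called lower), with differences of -0.67 ± 0.18, -0.61 ± 0.16, -0.61 ± 0.16 and -0.60 ± 0.17 on the log2 scale. For M2-like against M0 the 2 genes H2-Aa and Cd74 were called (3.25% of genes), with differences of -0.71 ± 0.18 and -0.66 ± 0.17. Without untransfected M0 replicate 3 none of the 7 was called by edgeR in either test. The M1-like test also had 0 calls with only the compared groups in the fit and 1 without mock M1-like replicate 2, and the M2-like test had 0 without mock M2-like replicate 3 and 1 without M2-like replicate 3. The summed mesothelial markers, 4.90 to 8.20 CPM in untransfected and 10.2 to 17.5 CPM in mock M0 macrophages, moved with class II there. The macrophage sum moved the other way without overlap (16544 to 16900 against 12751 to 15442 CPM). So did the dendritic cell sum (4.98 to 6.89 against 3.27 to 4.46 CPM) and the eosinophil sum (16.1 to 24.3 against 9.47 to 12.5 CPM). The B cell, T cell, large peritoneal macrophage and mast cell sums overlapped, and the part of all these lists in the class II result was not tested.

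Every siRNA pool lowered its target against the negative pool. The Myc pool left 38.0% ± 8.01 (SD, n = 3) of the mean Myc level of the negative pool, the E2f1 pool 25.2% ± 4.05 of E2f1, the Pparg pool 21.9% ± 2.57 of Pparg and the Stat6 pool 27.3% ± 5.79 of Stat6. Under the combined pool Myc and Pparg were left at 39.6% ± 3.20 and 28.3% ± 2.25, and E2f1 and Stat6 at 60.4% ± 2.01 and 53.9% ± 4.82.

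Class II also differed between the negative pool and mock. Ciita went from 30.7, 32.6 and 33.5 CPM in mock M2-like macrophages to 19.4, 19.5 and 21.3 CPM under the negative pool, a fall of 0.68 on the log2 scale (SE 0.14; edgeR, adjusted p = 0.000845), and H2-Ab1 from 681, 758 and 760 CPM to 520, 553 and 541 CPM, a fall of 0.45 (SE 0.11). With H2-DMb1, which fell by 0.26 (SE 0.08), 3 of 7 were called lower, against 5.03% of genes. H2-DMb1 passed the threshold in only 1 of 6 fits that left out a library. The class I genes moved the other way: all 7 rose under the negative pool, where 6.67% of genes were called higher, led by Tap1, a subunit of the peptide transporter (1.32 ± 0.13).

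With the 4 regulators silenced together, class II was lower still. Ciita was at 8.77, 10.4 and 8.45 CPM under the combined pool against 19.4, 19.5 and 21.3 CPM under the negative pool, a fall of 1.12 on the log2 scale (SE 0.15; edgeR, adjusted p = 1.40e-06). H2-Eb1 was at 211, 186 and 183 CPM against 335, 323 and 326 CPM and fell by 0.76 (SE 0.12). H2-DMa was at 25.996, 29.1 and 27.3 CPM against 42.7, 44.6 and 48.6 CPM and fell by 0.72 (SE 0.11). None of the 3 genes overlapped between the groups. H2-Aa was at 267, 252 and 285 CPM against 430, 428 and 418 CPM, H2-Ab1 at 442, 382 and 359 CPM against 520, 553 and 541 CPM, Cd74 at 845, 841 and 783 CPM against 1191, 1201 and 1133 CPM, and H2-DMb1 at 45.4, 43.6 and 47.1 CPM against 56.6, 59.96 and 60.5 CPM. These 4 fell by 0.67, 0.45, 0.51 and 0.38 (SE 0.13, 0.11, 0.12 and 0.08), again without overlap. The 2 groups were separate in this direction for 22.1% of all genes tested. All 7 were called lower, against 13.9% of genes, with a median log2 fold change of -0.67 against 0.01 over all genes tested, and all 7 stayed called when any 1 library of either group was left out.

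Under the Myc pool alone all 7 fell too. Ciita was at 7.65, 9.10 and 7.14 CPM, a fall of 1.33 on the log2 scale (SE 0.15; edgeR, adjusted p = 8.03e-08), and H2-Eb1 at 155, 158 and 149 CPM, a fall of 1.09 (SE 0.12). H2-Aa was at 237, 201 and 233 CPM, Cd74 at 748, 709 and 732 CPM and H2-DMa at 22.5, 28.7 and 29.2 CPM. All 7 were called lower, against 15.6% of genes, with the smallest fall in H2-DMb1 (0.41, SE 0.08). The Myc and the combined pool were compared with the same negative pool samples, so their fold changes are not independent. The study's methods give the Myc siRNA a different supplier from the E2f1, Pparg and Stat6 pools, and name none for the negative pool. The combined pool also held the Myc siRNA, so loss of Myc and an effect of that reagent cannot be told apart.

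With E2f1, Pparg or Stat6 silenced alone, few of the 7 passed the test. Under the E2f1 pool edgeR called 0 of 7 (0.91% of genes called), 6 of 7 passed an unadjusted p under 0.05 and DESeq2 called 1, H2-DMa. Its 7 log2 fold changes were all negative, from -0.37 to -0.07, and Ciita was at 17.9, 14.8 and 15.9 CPM. Under the Stat6 pool edgeR called 0 of 7 (1.51% of genes called), 1 passed an unadjusted p under 0.05 and DESeq2 called 0. Ciita was at 17.3, 15.01 and 11.4 CPM there, below every negative pool sample, with a log2 fold change of -0.46 (95% interval -0.76 to -0.17; edgeR, adjusted p = 0.114), and Cd74 at 1110, 1114 and 1100 CPM. Under the Pparg pool H2-Ab1, at 671, 713 and 752 CPM, was higher by 0.40 ± 0.11 (edgeR, adjusted p = 0.0287), 1 of 7 against 2.71% of genes, and 5 of 6 fits that left out a library lost this call. Ciita was at 18.8, 20.3 and 17.9 CPM under the Pparg pool, with 1 of the 3 samples in the range of the negative pool and the others below it, and a log2 fold change of -0.08 (95% interval -0.37 to 0.21).

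These calls depend on the control. Against mock M2-like macrophages, 7 of 7 were called lower under the E2f1 pool (11.6% of genes were called in either direction) and 5 of 7 under the Stat6 pool (11.5%), and under the Pparg pool 1, Ciita, was called lower (17.2%), with a log2 fold change of -0.76. Under the Myc and the combined pool all 7 were lower against either control. Against mock, 38.7% (Myc) and 37.1% (combined) of genes were called in either direction. Ciita was lower than mock by 2.01 (Myc) and 1.80 (combined) on the log2 scale.

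**Figure D2:**
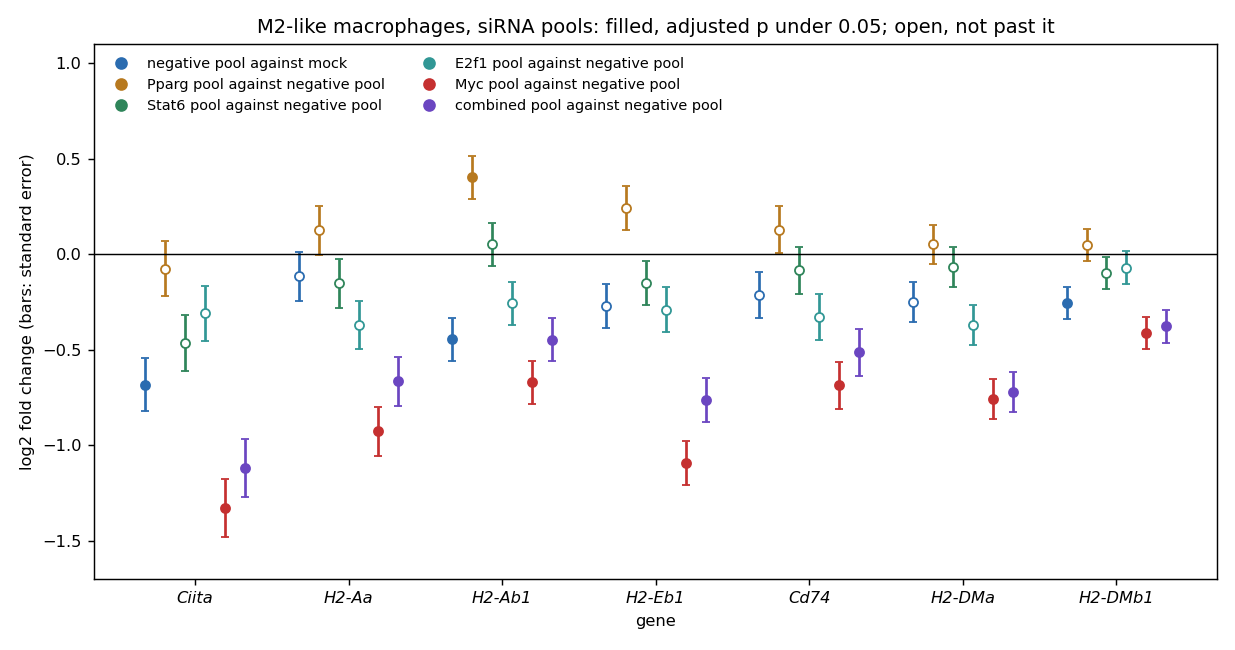
Log2 fold changes of the 7 genes in M2-like macrophages, with bars of 1 standard error. Filled points passed an adjusted p under 0.05. The Myc and combined pools are filled and below 0 for all 7 genes, from -0.38 (H2-DMb1, combined) to -1.33 (Ciita, Myc), and the E2f1 and Stat6 pools are open throughout.

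The combined pool was then set against each single pool, a comparison chosen after the data were seen. Against the Myc pool edgeR called 0 of 7 (0.0494% of genes called), 2 passed an unadjusted p under 0.05 and DESeq2 called 0, with log2 fold changes of 0.04 to 0.33 and 95% intervals that together spanned -0.18 to 0.57. Against the Pparg pool all 7 were lower (10.3% of genes called lower), by 0.42 (H2-DMb1) to 1.04 (Ciita). Against the Stat6 pool all 7 were lower (11.8%), by 0.28 to 0.66, and H2-DMb1 lost its call in 3 of 6 fits that left out a library. Against the E2f1 pool H2-Eb1, H2-DMa, H2-DMb1 and Ciita were lower (4 of 7, against 11.3%), by 0.31 to 0.81, and H2-DMa lost its call in 4 of 6 such fits.

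The levels reached can be read from the order of the 12 groups. Ciita was highest in the 2 M1-like groups, followed by untransfected and mock M2-like macrophages, the negative, Pparg, E2f1 and Stat6 pools, mock and untransfected M0 macrophages, the combined pool and the Myc pool. The combined pool (8.45 to 10.4 CPM) overlapped with untransfected M0 macrophages (7.57 to 12.2 CPM), and every sample of both lay below mock M0 macrophages (12.5 to 13.9 CPM). H2-DMa likewise ended with the combined and Myc pools in the range of M0 macrophages, at 27.5 ± 1.54 and 26.8 ± 3.71 CPM (SD, n = 3) against 28.7 ± 3.85 CPM, and neighbours from rank 8 to rank 12 overlapped. H2-Aa and Cd74 stayed above both M0 groups in every sample under every pool, and the Myc pool had the lowest mean of the siRNA groups for all 7 genes. H2-Eb1 under the Myc pool, at 149 to 158 CPM, overlapped with mock M0 at 141 to 155 CPM, and H2-Ab1 under the Myc pool, at 312 to 375 CPM, with mock M0 at 272 to 329 CPM. H2-DMb1 under both pools, at 42.9 to 45.4 and 43.6 to 47.1 CPM, lay within the range of mock M0 (39.4 to 50.2 CPM).

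**Figure D3:**
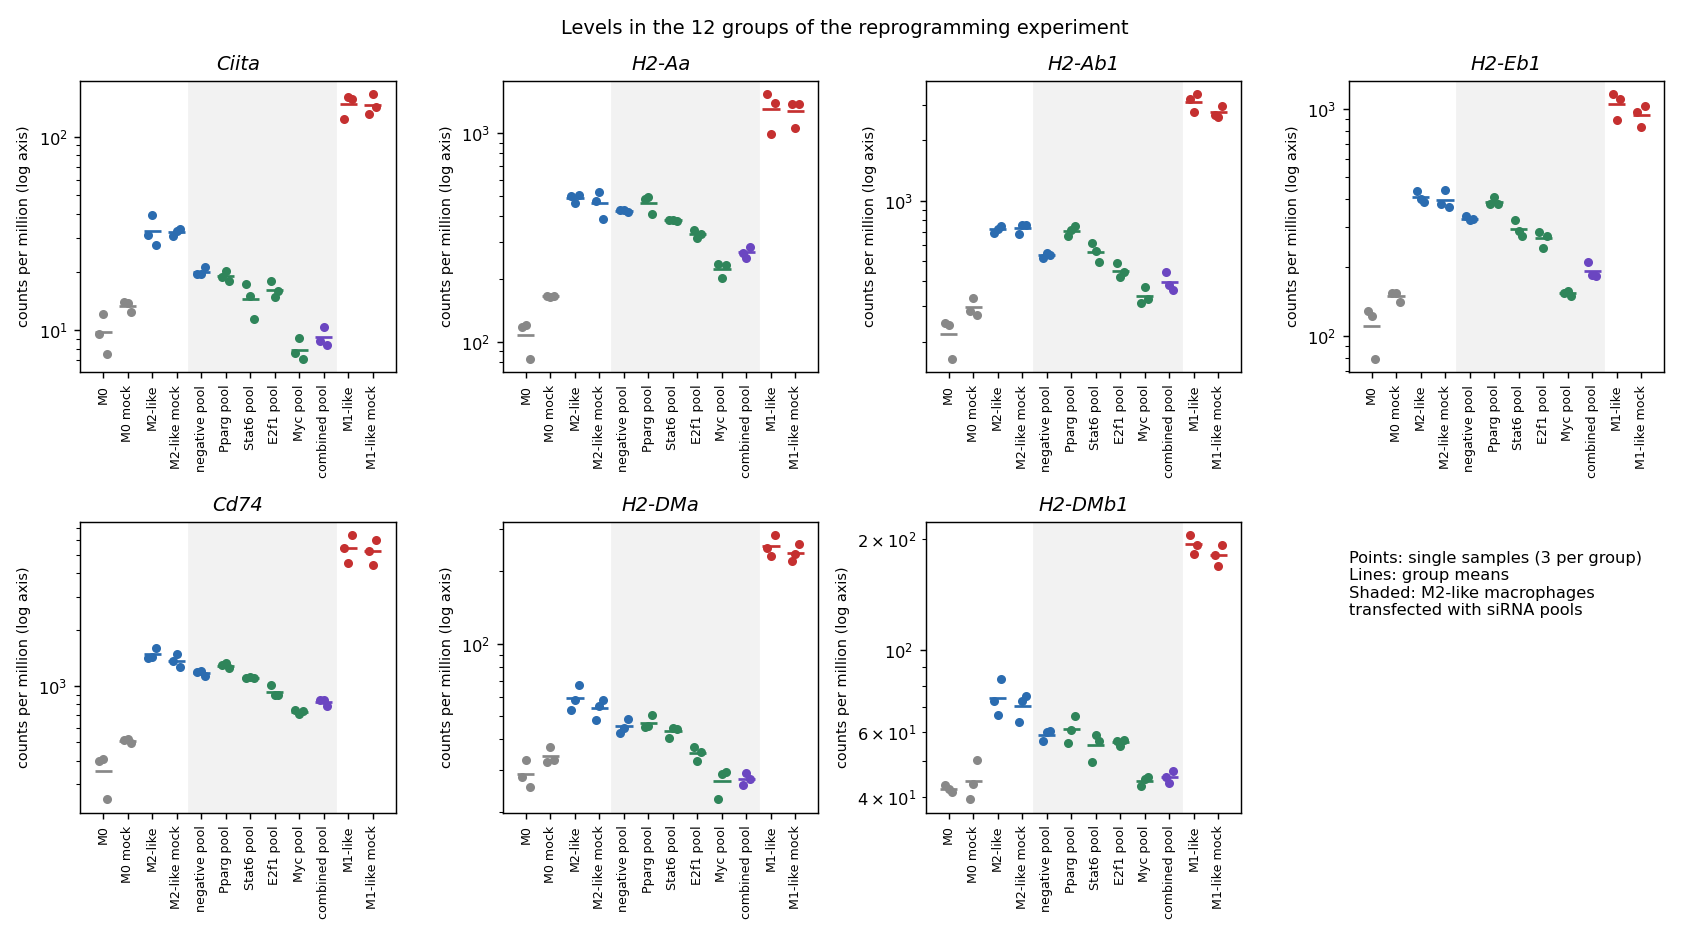
CPM (log axis, scales differ between panels) of each gene in the 12 groups of the reprogramming experiment, with a point for each of 3 samples and a line at the mean. In every panel the 2 M1-like groups stand above all others, and within the shaded siRNA groups the Myc and combined pools have the lowest means.

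The combined pool was also set against mock M1-like macrophages, the state the reprogramming aimed at. All 7 genes were lower under the pool (25.6% of genes were called lower), by 1.99 (H2-DMb1) to 3.98 (Ciita) on the log2 scale. Ciita was at 131, 165 and 141 CPM in those macrophages, 15.8-fold above the combined pool, and H2-DMa at 221, 235 and 258 CPM, 8.65-fold above it. No M1-like group received siRNA, and among M2-like macrophages mean Ciita was 32.2 CPM with mock and 20.1 CPM under the negative pool. The part of siRNA itself in the comparison with mock M1-like macrophages was not tested. The 7 genes made up 1.08% of the TMM-scaled library size in mock M1-like macrophages, 0.311% in mock M2-like macrophages, 0.259% under the negative pool, 0.176% under the combined pool and 0.152% under the Myc pool.

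Other antigen presentation genes differed in direction under the same pools. The 4 co-stimulatory genes all rose under the combined pool against the negative pool, where 12.5% of all genes were called higher, from Cd86 (0.43 ± 0.12) to Icam1, an adhesion molecule that binds T cells (2.29 ± 0.26), and the class I genes H2-K1, Tap1 and Tap2 rose (3 of 7, led by Tap1 with 0.66 ± 0.12). The processing list fell with class II. Under the combined pool 8 of 10 were lower (13.9% of all genes called lower) and under the Myc pool 10 of 10 (15.6%). Ctsl, a cathepsin, fell most, by 0.90 (SE 0.11) under the combined pool. Among the inducers of Ciita, Irf1 rose by 0.41 ± 0.12 under the combined pool, and Ifngr2 and Jak1 fell by 0.22 and 0.17. Prdm1 fell by 0.47 (SE 0.10). Of the DNA-bound complex only Creb1 passed the test, with a fall of 0.41 (SE 0.07). The other class II genes had no call under the combined pool by edgeR, with log2 fold changes of 0.99 ± 0.64 for H2-Ob, 1.48 ± 0.71 for H2-Oa, 0.17 ± 0.33 for H2-DMb2 and 0.84 ± 0.67 for H2-Eb2, none of them above 7.55 CPM in either group.

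**Figure D4:**
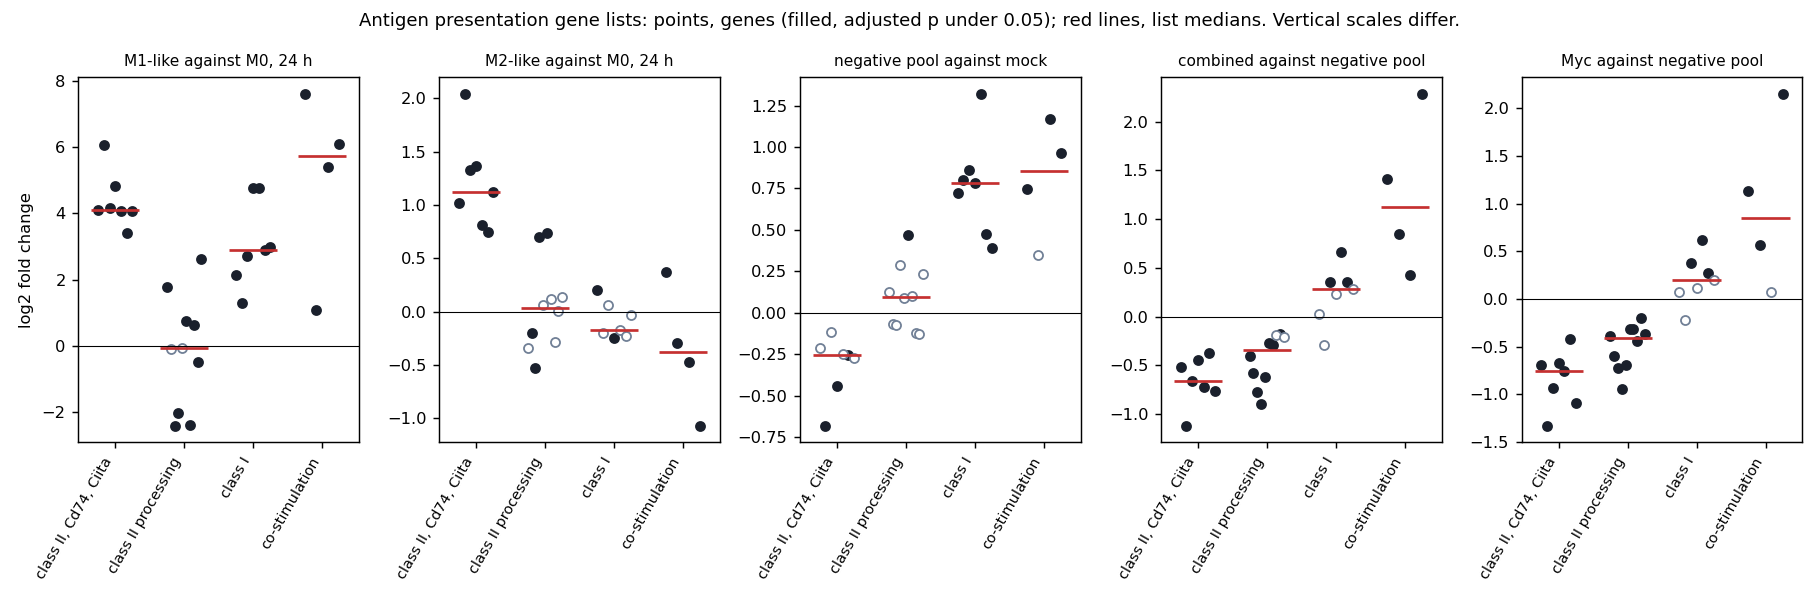
Log2 fold changes of 4 gene lists in 5 comparisons, with 1 point per gene (filled, adjusted p under 0.05), red lines at list medians and vertical scales that differ between panels. Class II, class I and co-stimulatory genes are all above 0 in M1-like macrophages, whereas under the combined and the Myc pool the class II and processing genes lie below 0 and the co-stimulatory genes above it.

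The summed level of the B cell markers was 175 to 265 CPM under the combined pool, 167 to 212 CPM under the Myc pool and 147 to 183 CPM under the negative pool. Dendritic cell markers summed to 4.80 to 5.53, 3.79 to 5.69 and 3.85 to 5.54 CPM in the same groups. The sum of the 7 macrophage markers was 11770 to 12701 CPM under the combined pool, 11531 to 11763 CPM under the Myc pool and 12285 to 13272 CPM under the negative pool. Under the Myc pool this macrophage sum lay below every negative pool sample, and under the combined pool it overlapped with them. The 4 mast cell markers were also lower without overlap under the Myc pool, at 2.75 to 3.26 against 3.37 to 5.38 CPM. In 2 lists both pools lay below the negative pool without overlap. The 4 mesothelial markers were at 7.56 to 11.7, 6.96 to 8.75 and 15.3 to 21.4 CPM in these groups. The 4 markers of large peritoneal macrophages were at 24.997 to 30.1, 20.7 to 29.8 and 31.3 to 37.8 CPM. The mesothelial gene Msln did not exceed 0.512 CPM in any sample. The part of these lists in the class II result was not tested. In the M1-like groups of this experiment the B cell sum was lowest, at 25.4 to 47.6 CPM untransfected and 28.7 to 47.4 CPM with mock.

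Over the 12 group means of the reprogramming experiment, the 7 genes varied together, with Pearson correlations of log2 CPM from 0.899 to 0.993 across 21 pairs. The points share control groups and are given as a description. Among 10123 genes with a mean log2 CPM of at least 2, the profile most like the mean of H2-Aa, H2-Ab1, H2-Eb1 and Cd74 belonged to Gnb4, a G protein β subunit, with r = 0.982. Gnb4 was at 6.97 ± 0.383 CPM (SD, n = 3) in M0, 10.1 ± 1.54 CPM after IL-4 and 59.9 ± 6.73 CPM after LPS with IFNγ in the macrophages of the polarization experiment, which was not used for the ranking. The next were Cnbp, Cisd2, Arhgap28, Txlng, Tmem167b, Gm5345, Trmt11, Zfp106 and E2f5, down to r = 0.925. The 12 groups include both M1-like groups, so a high correlation need not mean a fall under the siRNA pools. Gnb4 was at 10.3, 11.2 and 12.7 CPM under the Myc, combined and negative pools. E2f5 was at 7.99, 8.07 and 7.91 CPM there, and at 11.7 and 11.8 CPM in untransfected and mock M1-like macrophages. In the polarization experiment 8 of these 10 had means in the order M0, M2-like, M1-like from low to high. The exceptions were Cnbp, at 148, 182 and 167 CPM (M0, M2-like and M1-like), and Trmt11, at 7.05, 9.30 and 6.99 CPM. For Ciita the 5 most alike were Zfp106 (r = 0.970), Msi2, Rbl1, Golph3 and Lrrc8c (r = 0.957), of which 3 had that order. The share of all genes with that order of means was not counted, so both counts stand without a background. Over the 36 samples in place of the group means, 5 of the 10 and 2 of the 5 were listed again.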

How the data were processed

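RNA-seq counts per gene were analysed for 54 libraries, 18 of the polarization experiment (50 nt single reads) and 36 of the reprogramming experiment (150 nt paired reads). The authors deposited raw counts for each library. Per the labels and the study's methods, reads were trimmed with Trimmomatic, aligned to mm10 with TopHat2 and counted with featureCounts; tool versions, annotation release, strand setting and treatment of multi-mapping reads are not given in the sources used here. Of 39179 gene IDs, 37607 had a symbol in GENCODE M21.

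In the polarization experiment, paired technical replicates differed by close to sampling noise (chi-square per gene 1.07 to 1.10, against 3.63 to 52.4 between mice). Each pair was summed, giving 45 samples in 15 groups of 3. At which step the replicates were split is not given in the sources used here. The 2 experiments were fitted separately in edgeR 4.0.16 (R 4.3.3): filterByExpr with a minimum count of 10 and a minimum total of 15, TMM scaling, and a quasi-likelihood fit over all groups with a contrast per comparison and Benjamini-Hochberg adjustment over 16110 and 14172 genes at a threshold of 0.05. Standard errors were derived from the F statistic and the 95% intervals from the t distribution. CPM used TMM-scaled library sizes, and RPKM divided them by the exon length in GENCODE M21. DESeq2 1.42.0 served as an alternative. The scripts were tested on simulated data. Totals of 13421854 to 29880494 counts per library limit the precision of genes at a few CPM.

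Samples were grouped by the labels. In the polarization experiment replicate numbers mark the same mouse, and same-numbered samples deviated together (median correlation 0.25, lowest -0.0559, 9 pairs); a block on the mouse changed no call there. Alternatives were the block, DESeq2, RLE scaling, no filter, a stricter filter, only the compared groups, another control, a fold threshold and leaving out each sample.

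The 7 genes and all lists were chosen with earlier results of these data known. Named genes are the 7 members, the other class II genes and, in each list, the called gene with the largest rise and the largest fall in M1-like and M2-like against M0 at 24 h and in the combined against the negative pool, plus the genes most alike in pattern; other list genes (such as Jak2) and the comparison of the combined with single pools were chosen after their values were seen. Promoter sequences are from RefSeq (GRCm38.p6), which matched H2-Aa, H2-Eb1, H2-DMa and H2-DMb1 among the 7; H2-Ab1, Cd74 and Ciita are not shown.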

Additional observations from a re-analysis of the deposited data

Results flagged for a closer look

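For 6 results the response to polarization differed between mock transfected and untransfected macrophages in a test of the difference itself (edgeR's quasi-likelihood test, n = 3 samples per group). In M1-like against M0 macrophages the difference, mock minus untransfected, was -0.67 for H2-Aa (adjusted p = 0.0165), -0.61 for H2-Ab1 (adjusted p = 0.0119), -0.61 for H2-Eb1 (adjusted p = 0.0154) and -0.60 for Cd74 (adjusted p = 0.0233) on the log2 scale. In M2-like against M0 macrophages it was -0.71 for H2-Aa (adjusted p = 0.0150) and -0.66 for Cd74 (adjusted p = 0.0180). Untransfected M0 replicate 3 was the lowest M0 sample for each of these genes, and without it 0 of 7 genes were called in both tests. With only the compared groups in the fit the M1-like test had 0 calls and the M2-like test 1, without mock M1-like replicate 2 the M1-like test had 1, and the M2-like test had 0 without mock M2-like replicate 3 and 1 without M2-like replicate 3. Both tests share the M0 samples.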

How the results depend on the processing

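Of 341 recomputed counts of called members, 307 stayed within 1.5 times the reported count, and of 2072 recomputed log2 fold changes 1976 kept their sign and their side of the threshold, 47 no longer passed it, 37 newly passed it and 12 changed sign; where a value below differs, the cause was not tested. Without the filter the E2f1 pool had 3 calls, the Stat6 pool 1 and the M2-like interaction (mock against untransfected) 4. With the replicate block, the E2f1 pool had 1, the Stat6 pool 1 and the M2-like interaction 4; in the reprogramming experiment the samples share only a number (median correlation of same-numbered samples 0.183, range -0.249 to 0.627), and the block moved no other count of calls by over 1.5 times. DESeq2 called 1 under the E2f1 pool. With only the compared groups in the fit, mock against untransfected M0 had 2 calls, the E2f1 pool 4, the Pparg pool 2, the M1-like interaction 0 and the M2-like interaction 1. Against mock in place of the negative pool, the E2f1 pool had 7, the Stat6 pool 5 and the Pparg pool 1, and the sign changed under the Pparg pool for H2-Ab1 (-0.042), H2-Eb1 (-0.031), H2-DMa (-0.20), H2-DMb1 (-0.21) and Cd74 (-0.085) and under the Stat6 pool for H2-Ab1 (-0.39). With a log2 fold change of at least 1 required, mock against untransfected M0, the negative pool against mock, the Pparg pool and both interactions had 0 calls, the combined pool 1 and the Myc pool 2. Leaving out 1 sample gave 2 to 6 calls for mock against untransfected M0, 0 to 5 for the M1-like interaction (1 without mock M1-like replicate 2, 0 without M0 replicate 3), 0 to 3 for the M2-like interaction (0 without M0 replicate 3 or mock M2-like replicate 3, 1 without M2-like replicate 3) and 0 to 1 for the Pparg pool. The sign changed in such fits for H2-DMb1 in mock against untransfected M0 (-0.026 to 0.15), H2-DMa in the combined against the Myc pool (-0.075 to 0.10), H2-DMa (-0.0015 to 0.10) and H2-DMb1 (-0.017 to 0.10) under the Pparg pool and H2-Ab1 under the Stat6 pool (-0.029 to 0.13). RLE scaling, a minimum count of 10 in every sample and technical replicates kept separate moved no count of calls by over 1.5 times. Of the genes most alike in pattern, 5 of 10 and 2 of 5 were listed again over the 36 samples.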
